A study of Mus musculus with 8 samples.

Results

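The integrin and laminin families are described here across livers recovering from a combined injury with ethanol and carbon tetrachloride (CCl4). The members were matched by gene symbol to a list that was chosen with earlier results of these data known. It held 35 genes, 25 integrin subunits and 10 laminin chains, and the deposited count table held 22155 genes. All 35 were in the table, and 35 of 35 passed the low-count filter. Of these, 31 reached the level that the filter asks for, 0.323 CPM of the library total before TMM scaling, in both libraries of every group. The other 4 passed with fewer: Itga2 missed it in the Ctgf controls, Itga11 reached it in both libraries of the Yap1 knockout group alone, Itgb6 in those of the Ctgf control group alone, and Itgae in both libraries of no group.

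RNA was sequenced from whole mouse liver in 8 libraries, and their labels form 4 groups with 2 libraries each. All mice are labelled C57BL/6 and 8 to 10 weeks old, and the treatment text applies to all groups: a Lieber-DeCarli liquid diet with 1% ethanol for 2 days and 2% ethanol for 10 days, with 1 dose of CCl4 (1 µl per g of body weight) injected 2 days before sacrifice. No group without the injury was analysed here. The Yap control group carried homozygous floxed Yap1 and received AAV8-GFP, an adeno-associated virus carrying green fluorescent protein. The Yap1 knockout group received AAV8-iCre, and its label gives a hepatocyte-specific deletion, so other liver cells keep the gene by label. The Ctgf control group carried homozygous floxed Ctgf, with no virus named, and the Ctgf knockout group is labelled a conditional knockout, with no Cre driver named in the labels used here. The Yap control and Yap1 knockout groups are called the Yap line below, and the other pair the Ctgf line. Yap1 encodes a transcriptional coactivator of the Hippo pathway, and Ctgf encodes a secreted matrix protein that binds integrins. The design asks what the loss of each gene does to liver transcripts after injury.

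Integrins are receptors for the extracellular matrix and for other cells, each made of an alpha and a beta subunit. The alpha subunit largely sets the ligand: collagens, laminins, proteins with an RGD motif such as fibronectin and vitronectin, or counter-receptors on other cells. Laminins are cross-shaped trimers of an alpha, a beta and a gamma chain that build basement membranes. In normal liver the sinusoids lack a continuous basement membrane, and laminin is found mainly around vessels and bile ducts and increases around sinusoids in fibrosis. Integrin signalling through focal adhesions is among the inputs known to activate YAP, and YAP works in the nucleus with TEAD factors.

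The libraries held 26904021 to 33488609 counts, and 3 counts, the floor used for a gene at 0, corresponded to 0.083 to 0.123 CPM. Apart from the filter level above, CPM are of the TMM-scaled library throughout, and replicates of a group correlated at 0.933 to 0.993 across genes. Alb, the hepatocyte albumin gene, was at 29930 to 69270 CPM over the libraries. The targeted gene Yap1 was at 107 and 76.1 CPM in Yap controls 1 and 2 and at 31.01 and 32.5 CPM in the Yap1 knockouts, a log2 difference of -1.53 (SE 0.22, adjusted p = 0.0557), just outside the threshold of 0.05, and -1.75 (adjusted p = 0.0345) without Yap control 2. Ctgf was at 28.8 and 32.1 CPM in Ctgf controls 1 and 2, and the libraries labelled Ctgf knockout 1 and 2 held 8.02 and 49.2 CPM, so replicate 2 goes against its label. Yap control 2 stands apart: 6 pancreatic acinar markers summed to 10050 CPM there and to 3.13 to 7.44 CPM in the other 7 libraries. Of those 6 markers, 5 were below 0.1 CPM or at 0 in each of the other 7 libraries, and Cela1 was at 3.04 and 783 CPM in Yap controls 1 and 2. Counts of members called, and the values that moved most, are given with and without these libraries.

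Promoters of 3 members are shown: Itga2, which differed most between the lines, and Itgb1 and Itga10, which carry the letters bound by TEAD factors, the partners of YAP. Each sequence is the 250 bases before the annotated transcript start in RefSeq, build GRCm38.p6, read 5′ to 3′ on the strand of the gene. Capitals mark GGAATG or its reverse complement, and lower case alone means that neither was found in the window.
Itga2 promoter, chr13:114932101-114932350, minus strand: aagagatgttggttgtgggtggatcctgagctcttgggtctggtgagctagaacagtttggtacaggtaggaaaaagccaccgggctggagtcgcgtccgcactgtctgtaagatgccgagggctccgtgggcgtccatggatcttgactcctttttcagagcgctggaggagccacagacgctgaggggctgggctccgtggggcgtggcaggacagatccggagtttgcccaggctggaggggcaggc
Itga10 promoter, chr3:96645334-96645583, plus strand: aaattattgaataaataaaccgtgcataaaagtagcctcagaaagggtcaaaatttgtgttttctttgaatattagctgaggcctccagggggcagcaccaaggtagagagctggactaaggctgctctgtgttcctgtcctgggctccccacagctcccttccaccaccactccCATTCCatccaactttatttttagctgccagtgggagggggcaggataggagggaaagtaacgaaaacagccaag
Itgb1 promoter, chr8:128685404-128685653, plus strand: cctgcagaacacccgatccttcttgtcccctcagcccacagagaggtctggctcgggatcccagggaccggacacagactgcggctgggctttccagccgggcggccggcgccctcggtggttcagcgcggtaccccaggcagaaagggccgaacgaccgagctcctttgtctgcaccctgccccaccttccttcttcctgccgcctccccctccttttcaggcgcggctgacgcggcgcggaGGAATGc
The match begins at position -75 in Itga10 and at position -7 in Itgb1, counted from the base before the start as -1. Of 23 members with an entry, 3 (Itga10, Itgb1 and Lamb3) held GGAATG on either strand. The 23 members had 26 windows, 3 of them with a match, beside 12.6% of all 32851 windows of that length. A second motif, TGANTCA of AP-1, was found in 1 of the 26 windows, that of Itgax, beside 6.75% of all windows. A match describes letters and is not a binding site. Itga6, Itga7, Itgae, Itgal, Itgb2, Itgb3, Itgb4, Lama1, Lama3, Lama4, Lamc1 and Lamc3 had no entry.

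Per length, Itgb1 was the most abundant member. Levels between genes are compared in CPM per kilobase of exon (GENCODE annotation of GRCm38), as the median over the 8 libraries. Itgb1, the common partner of collagen, laminin and fibronectin receptors, was at 115 CPM per kb, with a range of 68.2 to 136. Itgb5, which pairs with alpha v as a vitronectin receptor, followed at 33.8, then the leukocyte subunit Itgb2 at 17.9, the fibronectin receptor subunit Itga5 at 16.9, the laminin chain Lamc1 at 13.4 and Itgav at 12.6. In this order, 1 of 34 neighbouring pairs, Itgb1 above Itgb5, did not overlap over the 8 libraries. In all, 7 members had a median of at least 10 CPM per kb and 14 had a median under 1. The lowest was Itgb6, the partner of alpha v in epithelia, at 0.0401, with Itgae, Itga11 and Lama3 just above it.

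The subunits were present in unequal amounts. Itgb1 made up 51.6% to 70.1% of the summed level per kb of the 8 beta subunits, with the lowest share in Yap control 2. Itgb5 made up 11.5% to 27.7%, with its highest share in that same library. Among laminins, the alpha chains summed to 2.05 to 3.75 CPM per kb, the beta chains to 3.07 to 6.66 and the 2 listed gamma chains to 11.2 to 28.1. Lamc1, the gamma chain of most laminin trimers, stood at 4.88 to 7.36 times the summed alpha chains in every library. Lama5 made up 30.1% to 61.0% of the alpha chain level and Lama4 16.4% to 36.1%. These are shares of transcripts, and chain levels in protein were not measured.

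**Figure D1:**
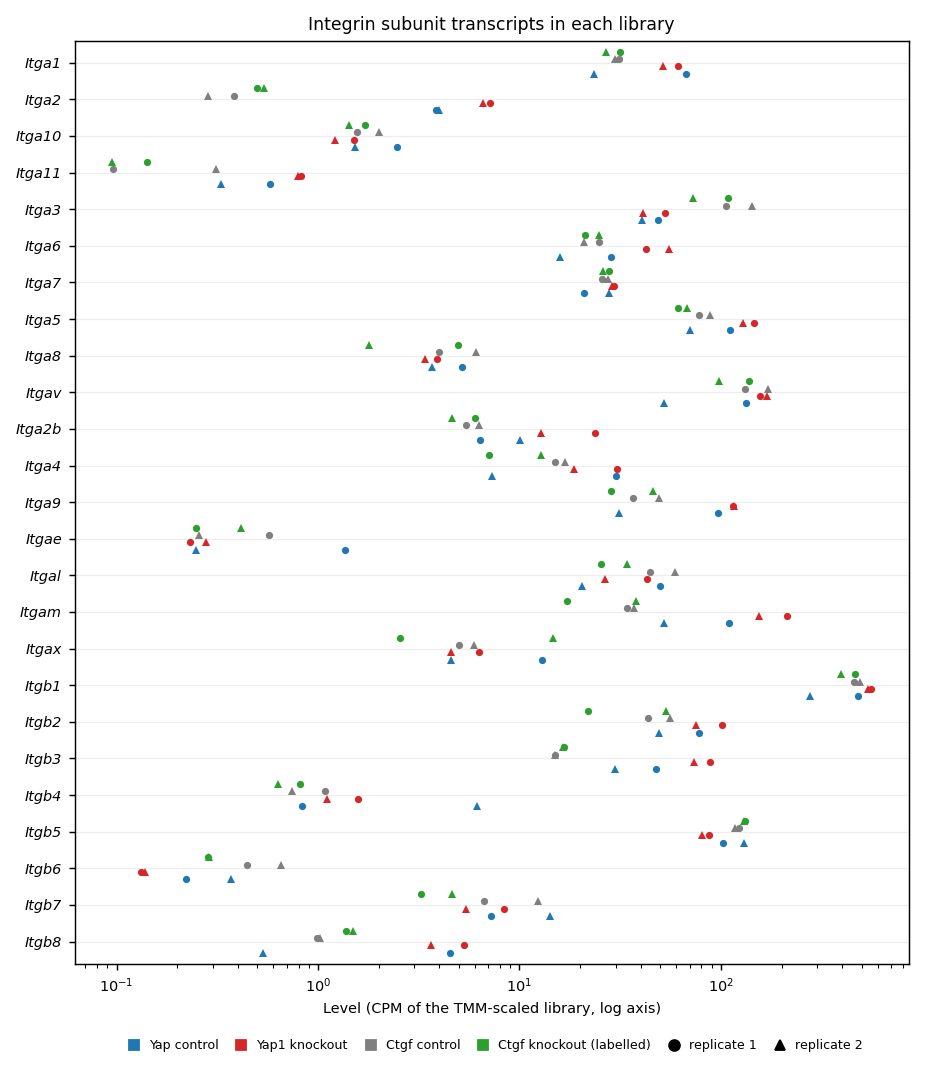
Level of each of the 25 integrin subunits in the 8 libraries, in CPM of the TMM-scaled library on a log axis, coloured by group with circles for replicate 1 and triangles for replicate 2. Itga2 and Itgb3 lie higher in all 4 Yap-line libraries than in all 4 Ctgf-line libraries, and Itga3 lies lower.

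Against Yap controls, no member passed the threshold after loss of hepatocyte Yap1. The call rule was edgeR's quasi-likelihood F test with Benjamini-Hochberg adjusted p under 0.05 over 13999 genes. It called 0 members higher and 0 lower, beside 0.0214% of all genes tested called higher and 0.00714% called lower. At an unadjusted p under 0.05, 7 members were higher (Itga2, Itga5, Itga6, Itga2b, Itgam, Itgb3 and Lama4), beside 6.64% of all genes, and 1 was lower (Itgb5), beside 7.14%. In 15 members (42.9%) both knockout libraries lay above both controls, beside 23.6% of all genes. In 4 (11.4%) both lay below, beside 20.8%. Itga11 is among the 15 but reached the filter level in both libraries of the Yap1 knockout group alone, the group where it is high. The median log2 difference of the members was 0.38, and that of all genes tested was -0.0046. The members' median was 0.76 without Yap control 1 and 0.16 without Yap control 2. DESeq2 called 2 members higher, Itga6 (adjusted p = 0.0267) and Itgb3 (adjusted p = 0.012), beside 1.94% of all genes, and 0 lower, beside 1.74%. With limma-voom 0 members were called, beside 0.0286% of all genes higher and 0.00714% lower. Without Yap control 1, which leaves the library with acinar transcripts as the only control, 15 members passed, 13 higher and 2 lower, beside 12.4% of all genes higher and 13.4% lower. With Yap control 1 as the only control, 0 members passed, beside 0.154% of all genes higher and 0.126% lower. Without Yap control 2 and the library labelled Ctgf knockout 2, 3 passed: Itgb3 higher, beside 3.72% of all genes, and Itgax and Lama1 lower, beside 2.86%.

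Against Ctgf controls, no member passed in the libraries labelled Ctgf knockout. The same rule called 0 members, beside 0% of all genes tested called higher and 0% called lower. At an unadjusted p under 0.05, 0 members were higher and 1 was lower, beside 0.657% and 1.32% of all genes. It was Itgb7, the partner of alpha 4 and alpha E on lymphocytes, at 6.66 and 12.3 CPM in the controls and 3.23 and 4.64 CPM in the libraries labelled knockout. Its log2 difference was -1.27 (SE 0.46, adjusted p = 1), and -1.56 without the library labelled Ctgf knockout 2. In the Yap line Itgb7 was at 7.25 and 14.1 CPM in the controls and 8.43 and 5.40 CPM in the knockouts, with Yap control 2 the highest of the 8 libraries. In 5 members (14.3%) both libraries labelled knockout lay above both controls, beside 15.5% of all genes. In 8 (22.9%) both lay below, beside 16.8%. Itgb6 is among the 8 but reached the filter level in both libraries of the Ctgf control group alone, the group where it is high. The median log2 difference was -0.20 over the members and 0.0064 over all genes. DESeq2 also called 0 members, beside 0.00714% of all genes higher and 0.0214% lower, and so did limma-voom, beside 0% and 0.00714%. Without the library labelled Ctgf knockout 2, the call count stayed at 0, with the remaining library assumed to vary like the other groups.

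The difference between these effects, Yap1 minus Ctgf, called 0 members, beside 0% of all genes higher and 0% lower. At an unadjusted p under 0.05, the signed difference was above 0 in 6 members (Itga5, Itga6, Itga2b, Itgam, Itgb3 and Lama4), beside 4.68% of all genes. It was below 0 in 0 members, beside 4.19%. DESeq2 called 0 members, beside 0.607% of all genes higher and 0.407% lower. Without Yap control 1 the count was 11, 10 with the larger effect in the Yap1 comparison, beside 7.84% of all genes, and 1 with the smaller, beside 6.63%. It was 0 without Yap control 2, and also 0 when the library labelled Ctgf knockout 2 was left out with it, beside 0.75% and 0.252% of all genes.

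The controls of the lines differed in 3 members. Itga2 and Itgb3 were higher and Itga3 was lower in the Yap controls than in the Ctgf controls, beside 1.27% of all genes called higher and 1.11% called lower. In 8 members (22.9%) both Yap controls lay above both Ctgf controls, beside 26.1% of all genes. In 4 (11.4%) both lay below, beside 27% of all genes. Itga11 is among the 8 but was kept by the Yap line. Itgb6 is among the 4 but reached the filter level in both libraries of the Ctgf control group alone. The mouse line, the floxed gene, the virus and any difference in handling cannot be told apart in this comparison. The Yap controls enter both this comparison and the Yap1 comparison, so a high or low value in them moves both.

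Averaged over both groups of each line, a setting chosen after the data were seen, 11 members passed. The 9 higher in the Yap line were Itga2, Itga11, Itga2b, Itgam, Itgb3, Lama5, Lamb1, Lamb2 and Lamc1, beside 10.1% of all genes, and the 2 lower were Itga3 and Lama3, beside 7.49%. All 4 Yap-line libraries lay above all 4 Ctgf-line libraries in 7 members, beside 11.5% of all genes, and below them in 2, beside 11.2%. Itga11 is among the 11 and the 7 but reached the filter level in 3 Yap-line libraries and 1 Ctgf-line library, so it was kept by the line where it is high. Without it the counts are 10 members called and 6 above. Without Yap control 2 and the library labelled Ctgf knockout 2, this average called 23 members, 20 higher and 3 lower, beside 23.6% and 23.8% of all genes. Itga11 is also among these 20. With or without those libraries, the average includes the Yap1 knockouts, so it also holds their difference from the controls.

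The largest difference between the lines among the 35 members was in a collagen-binding subunit. Itga2, the alpha 2 subunit of a collagen receptor of platelets and epithelia (chr13:114833081-114932100, minus strand, GRCm38), was at 3.84 and 3.99 CPM in Yap controls 1 and 2 and at 7.18 and 6.58 CPM in Yap1 knockouts 1 and 2. Ctgf controls 1 and 2 held 0.383 and 0.284 CPM, from 12 and 10 counts, and the libraries labelled Ctgf knockout 1 and 2 held 0.497 and 0.541 CPM. Every Yap-line library lay above every Ctgf-line library, and the knockouts lay above their own controls in both lines. The controls differed 11.7-fold, with a log2 difference of 3.54 (SE 0.35, adjusted p = 0.0191), and the average over each line differed 12.4-fold (adjusted p = 0.000738). Within the lines, the log2 differences of knockout from control were 0.81 (SE 0.30, adjusted p = 0.317) and 0.64 (SE 0.37, adjusted p = 1).

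The other collagen-binding subunits were Itga1, Itga10 and Itga11. Itga1, found on stellate and endothelial cells, was at 67.01 and 23.5 CPM in the Yap controls and 61.4 and 51.5 CPM in the Yap1 knockouts, so Yap control 2 lay below both knockouts and Yap control 1 above them. It ran from 26.9 to 31.5 CPM in the Ctgf line. Itga11, a fibroblast collagen receptor, stayed under 1 CPM in all libraries, with 0.581 and 0.329 CPM in the Yap controls, 0.823 and 0.796 CPM in the Yap1 knockouts and 0.0954 to 0.313 CPM in the Ctgf line. It passed the filter through the Yap line, so its call in the average over each line is not read as a difference between the lines. Itga10 shares exon sequence with the counted gene Gm42957 on the same strand, so its level of 1.21 to 2.46 CPM is uncertain.

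Of the laminin-binding subunits, Itga3 was lower in the Yap controls than in the Ctgf controls. Itga3 (chr11:95044474-95076801, minus strand), a laminin receptor subunit of epithelia, was at 48.8 and 40.7 CPM in the Yap controls and 52.6 and 40.9 CPM in the Yap1 knockouts. The Ctgf controls held 106 and 143 CPM and the libraries labelled Ctgf knockout 108 and 72.4 CPM, all above the Yap line. The controls differed 2.79-fold, with a log2 difference of -1.48 (SE 0.28, adjusted p = 0.0436). Within the lines the differences were 0.063 (SE 0.27) and -0.47 (SE 0.27), with overlapping libraries in both, and the second was -0.20 without the library labelled Ctgf knockout 2.

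Itga6, which pairs with beta 1 or beta 4 and is found on endothelium and bile ducts, was at 28.5 and 15.8 CPM in the Yap controls and at 42.6 and 55.2 CPM in the Yap1 knockouts. Both knockouts lay above every other library, since the Ctgf line ran from 20.98 to 24.96 CPM. The log2 difference was 1.14 (SE 0.30, adjusted p = 0.204) for Yap1, 0.78 without Yap control 2, and -0.0059 (SE 0.30, adjusted p = 1) for the libraries labelled Ctgf knockout, and the difference between the effects was 1.14 (SE 0.43, adjusted p = 0.531). Itga7, the laminin receptor subunit of muscle, varied little, from 20.9 to 29.5 CPM over the 8 libraries. A few of its exon bases overlap an exon of Mettl7b on the other strand.

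Of the RGD-binding subunits, Itga5 and Itgav shared an order within the Yap line, with Yap control 2 lowest and both Yap1 knockouts highest. Itga5, the alpha subunit of the main fibronectin receptor, was at 112 and 70.3 CPM in the Yap controls and 146 and 128 CPM in the Yap1 knockouts, with a log2 difference of 0.60 (SE 0.25, adjusted p = 0.355), which was 0.30 without Yap control 2. In the Ctgf line, the controls were at 78.2 and 88.3 CPM and the libraries labelled knockout at 61.01 and 68.2 CPM, below both controls (log2 difference -0.37, SE 0.25). Itgav, which pairs with beta 1, 3, 5, 6 and 8 and activates latent TGF-beta in several of these pairs, was at 133 and 52.2 CPM in the Yap controls and 157 and 168 CPM in the Yap1 knockouts. Yap control 2 was the lowest of the 8 libraries, and the Ctgf line ran from 98.01 to 171 CPM. Itga8, a stellate cell receptor for nephronectin, ran from 1.78 to 6.11 CPM with overlapping libraries in the Yap1, Ctgf and control comparisons.

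The platelet pair Itga2b and Itgb3 was highest in the Yap1 knockouts. Itga2b, the alpha IIb subunit of the platelet fibrinogen receptor, was at 6.39 and 10.1 CPM in the Yap controls and at 23.6 and 12.7 CPM in the Yap1 knockouts. Its range in the Ctgf line was 4.61 to 6.31 CPM, and the log2 difference of the Yap1 knockouts from their controls was 1.15 (SE 0.37, adjusted p = 0.263). Itgb3 (chr11:104608000-104670476, plus strand), its partner, which also pairs with alpha v on endothelium and other cells, was at 47.5 and 29.7 CPM in the Yap controls and at 87.8 and 73.4 CPM in the Yap1 knockouts. The Ctgf controls were at 14.9 and 14.98 CPM and the libraries labelled Ctgf knockout at 16.7 and 16.4 CPM. The 4 groups did not overlap: the knockouts lay above their controls, and all Yap-line libraries above all Ctgf-line libraries. The log2 difference was 1.06 (SE 0.25, adjusted p = 0.167) for Yap1, the smallest p of any member in that comparison, and 1.37 (SE 0.25, adjusted p = 0.0436) between the controls, a 2.58-fold difference. Averaged over each line it was 3.54-fold (adjusted p = 0.00223).

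Sums of platelet and megakaryocyte markers had the order of this pair and of Itga2 between the lines and in the Yap line, and the opposite order to Itga2 and Itgb3 within the Ctgf line. The 5 markers (Pf4, Ppbp, Gp9, Gp1bb and Gp6) summed to 21.4 to 25.4 CPM in the Yap controls and to 52.6 to 69.2 CPM in the Yap1 knockouts. The sums were 3.38 to 3.41 CPM in the Ctgf controls and 1.97 to 2.45 CPM in the libraries labelled Ctgf knockout. None of the 5 was at 0 in any library. In 5 of 5 both Yap1 knockouts lay above both Yap controls, beside 23.6% of all genes, with 0 past the threshold. In 4 of 5 all Yap-line libraries lay above all Ctgf-line libraries, beside 11.5% of all genes, and Gp1bb overlapped. In the Ctgf line the sums were lower in the libraries labelled knockout than in the controls, where Itga2 and Itgb3 were higher. Pf4 led the sum in the Yap line, at 19.2 and 17.1 CPM in the Yap controls and 24.5 and 47.1 CPM in the Yap1 knockouts. In bulk liver, a larger number of cells of a type and more RNA per cell cannot be told apart, and the part of platelets in these results was not tested.

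Itga4 and Itga9 encode subunits of receptors that bind VCAM-1 and osteopontin. Itga4, found on leukocytes, was at 30.1 and 7.33 CPM in the Yap controls and 30.4 and 18.7 CPM in the Yap1 knockouts. It shares exon sequence with Cerkl on the other strand, and whether the counting used strand is unknown here. Itga9, found on endothelium and neutrophils, was at 97.04 and 31.3 CPM in the Yap controls and 114 and 116 CPM in the Yap1 knockouts, a log2 difference of 0.84 (SE 0.48, adjusted p = 0.446) that was 0.25 without Yap control 2. In both genes Yap control 2 was the lowest Yap-line library, and the Itga9 range in the Ctgf line was 28.4 to 49.1 CPM.

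Among the leukocyte subunits, Itgam differed from Itgal, Itgax and Itgae in its order of libraries. Itgam, the CD11b subunit of neutrophils and monocytes, was at 109.6 and 52.5 CPM in the Yap controls and at 214 and 155 CPM in the Yap1 knockouts. The Ctgf controls were at 34.3 and 37.05 CPM and the libraries labelled knockout at 17.3 and 37.9 CPM, so every Yap-line library lay above every Ctgf-line library. The log2 difference was 1.19 (SE 0.44, adjusted p = 0.318) for Yap1, 0.75 without Yap control 2, and 1.18 (SE 0.44, adjusted p = 0.172) between the controls, and 1.96 (SE 0.32, adjusted p = 0.00760) averaged over each line. Itgb2, its partner, was at 77.5 and 49.6 CPM in the Yap controls and 101 and 75.2 CPM in the Yap1 knockouts, where Yap control 1 lay within the range of the knockouts.

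Neutrophil markers had the same direction as Itgam in the Yap line. The 7 markers summed to 127.9 to 242 CPM in the Yap controls and to 455 to 943 CPM in the Yap1 knockouts. In 7 of 7 both knockouts lay above both controls, beside 23.6% of all genes, with 0 past the threshold. The sums were 161 to 189.8 CPM in the Ctgf controls and 68.4 to 137 CPM in the libraries labelled Ctgf knockout, and no neutrophil marker was at 0 in any library. The 5 monocyte and macrophage markers summed to 422 to 454 CPM in the Yap controls, 193 to 309 CPM in the Yap1 knockouts, 311 to 354 CPM in the Ctgf controls and 88.2 to 259.7 CPM in the libraries labelled Ctgf knockout. In the Yap line this gap in the sums lay in Lyz2. For 1 of 5 markers both knockouts lay below both controls, beside 20.8% of all genes, and 4 overlapped. Without Lyz2 the sums were 115 and 53.6 CPM in the controls and 94.9 and 68.6 CPM in the knockouts. Ly6c2, Ccr2, Cx3cr1, Lyz2 and Adgre1 were above 0 in all libraries. The part of neutrophils and monocytes in the level of Itgam was not tested.

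Itgal, the CD11a subunit of lymphocytes and other leukocytes, was at 49.97 and 20.5 CPM in the Yap controls and 43.2 and 26.7 CPM in the Yap1 knockouts. In the Ctgf line it was at 44.7 and 58.97 CPM in the controls and 25.5 and 34.1 CPM in the libraries labelled knockout, which lay below both controls (log2 difference -0.80, SE 0.43, adjusted p = 1). Itgax, the CD11c subunit of dendritic cells and macrophages, was highest in the library labelled Ctgf knockout 2, at 14.7 CPM, and in Yap control 1, at 12.9 CPM. The other 6 libraries held less than 7 CPM of Itgax. Itgae, the partner of beta 7 on intraepithelial T cells, reached 1.36 CPM in Yap control 1 and stayed under 0.6 CPM elsewhere.

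The broad beta subunits Itgb1 and Itgb5 went in different directions in the Yap line. Itgb1 was at 477 and 278 CPM in the Yap controls and at 556 and 537 CPM in the Yap1 knockouts, a log2 difference of 0.53 (SE 0.28, adjusted p = 0.426), which was 0.20 without Yap control 2. Yap control 2 was the lowest of the 8 libraries, and the Ctgf line ran from 395 to 492 CPM. Itgb5 was at 103 and 130.4 CPM in the Yap controls and at 87.03 and 80.4 CPM in the Yap1 knockouts, below both controls, with a log2 difference of -0.48 (SE 0.19, adjusted p = 0.346), which was -0.29 without Yap control 2. Both Yap1 knockouts were the lowest of the 8 libraries, since the Ctgf line ran from 118 to 132 CPM.

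Itgb4, Itgb6 and Itgb8 were scarce. Itgb4, the partner of alpha 6 in hemidesmosomes of epithelia, was at 6.13 CPM in Yap control 2 and at 0.636 to 1.58 CPM in the other 7 libraries. The duct markers Krt19, Epcam and Cftr were also highest in Yap control 2, at 32.6, 17.5 and 7.78 CPM, where the acinar markers stood, and Cftr was at 0 in the library labelled Ctgf knockout 2. The 6 bile duct markers together summed to 77.1 to 142 CPM in the Yap controls, 111.8 to 123 in the Yap1 knockouts, 170.4 to 173 in the Ctgf controls and 140.5 to 157 in the libraries labelled Ctgf knockout. Itgb8, which binds latent TGF-beta with alpha v, was at 4.54 and 0.535 CPM in the Yap controls, 5.30 and 3.63 CPM in the Yap1 knockouts and 0.988 to 1.49 CPM in the Ctgf line. Here Yap control 2 again lay apart, as the only Yap-line library below the Ctgf line. The log2 difference of the Yap1 knockouts was 0.80 (SE 0.76) for Itgb8 and -1.36 (SE 0.80) for Itgb4, and these were -0.020 and 0.70 without Yap control 2. Itgb6 was at 0.132 to 0.654 CPM in all libraries, where 3 counts are 0.083 to 0.123 CPM. The part of duct or pancreatic tissue in Itgb4 was not tested.

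**Figure D2:**
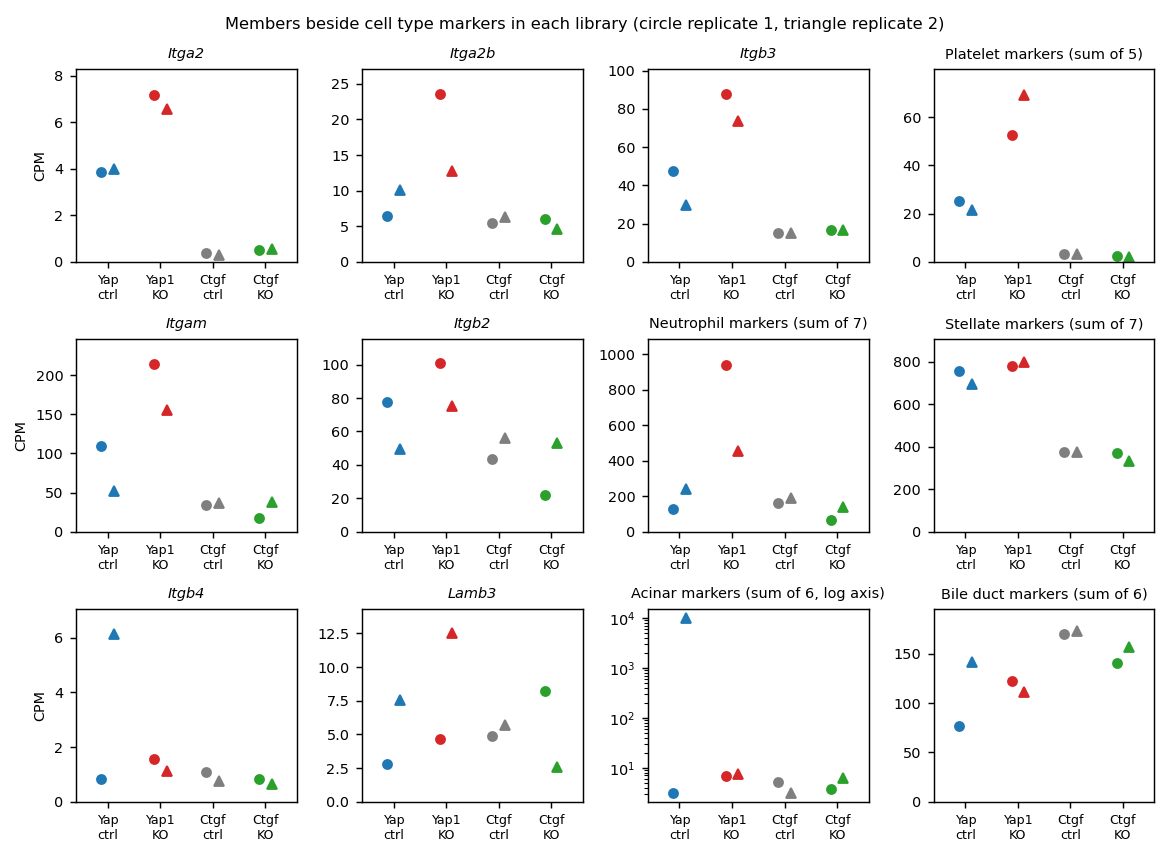
Members beside the summed CPM of marker lists, with 1 panel per gene or list, groups on the horizontal axis and CPM on the vertical axis from 0 (log axis for the acinar markers). Platelet markers at 21.4 to 69.2 CPM in the Yap line and 1.97 to 3.41 CPM in the Ctgf line order the lines as Itga2 and Itgb3 do, and Itgb4 and the acinar markers are highest in Yap control 2.

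Of the 5 laminin alpha chains, 0 passed in the Yap1, Ctgf and control comparisons. Lama5, the alpha chain of mature epithelial and vascular basement membranes, was at 15.6 and 15.3 CPM in the Yap controls and 17.5 and 17.4 CPM in the Yap1 knockouts. The Ctgf controls held 7.46 and 8.44 CPM and the libraries labelled Ctgf knockout 7.70 and 9.48 CPM, all below the Yap line. The controls differed by a log2 of 0.96 (SE 0.22, adjusted p = 0.0628), just outside the threshold (adjusted p = 0.0479 without Yap control 2), and the lines by 0.99 (SE 0.15, adjusted p = 0.00645). Lama3, an epithelial chain, was the reverse, with 0.719 and 0.617 CPM in the Yap controls, 0.658 and 0.588 CPM in the Yap1 knockouts and 1.73 to 2.34 CPM in the Ctgf line. Its log2 difference was -1.47 (SE 0.38, adjusted p = 0.0822) between the controls and -1.65 (SE 0.27, adjusted p = 0.00742) between the lines.

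Lama4, the alpha chain of endothelial basement membranes, was at 9.79 and 4.36 CPM in the Yap controls and at 16.3 and 15.5 CPM in the Yap1 knockouts. Both knockouts lay above every other library, since the Ctgf line ran from 6.26 to 8.90 CPM, and the log2 difference was 1.16 (SE 0.37, adjusted p = 0.262), which was 0.70 without Yap control 2. Lama2, the alpha chain of muscle and mesenchyme, also had both knockouts above every other library, with 2.90 and 1.77 CPM in the Yap controls and 5.04 and 4.15 CPM in the Yap1 knockouts (log2 difference 0.97, SE 0.42, adjusted p = 0.365). Lama1, the chain of early development, was at 11.9 CPM in Yap control 1 and at 3.21 to 6.44 CPM in the other 7 libraries. Its log2 difference between the controls was 0.26 (SE 0.52, adjusted p = 0.797), and it took the opposite sign, -0.97 (adjusted p = 0.0493), without Yap control 1.

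The widely used chains Lamb1 and Lamc1 were higher in the Yap line when both groups of each line were averaged. Lamb1 was at 30.9 and 16.8 CPM in the Yap controls, 38.4 and 33.8 CPM in the Yap1 knockouts and 13.6 to 18.03 CPM in the Ctgf line, with 1 Yap-line library, Yap control 2, inside the Ctgf range. Lamc1, which joins Lamb1 or Lamb2 in most trimers, was at 212 and 105 CPM in the Yap controls and 228 and 187 CPM in the Yap1 knockouts. The Ctgf controls held 87.7 and 116 CPM and the libraries labelled Ctgf knockout 98.01 and 102 CPM, and Yap control 2 lay inside that range. The log2 differences between the lines were 0.92 (SE 0.22, adjusted p = 0.0260) for Lamb1 and 0.85 (SE 0.24, adjusted p = 0.0445) for Lamc1, and neither passed between the controls alone, at 0.65 and 0.64. Both passed between the controls without Yap control 2, at 1.01 (adjusted p = 0.0437) for Lamb1 and 1.05 (adjusted p = 0.0410) for Lamc1.

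Lamb2, the beta chain of mature vascular membranes, was at 10.7 and 12.8 CPM in the Yap controls and 9.05 and 8.31 CPM in the Yap1 knockouts, below both controls, and at 5.11 to 6.74 CPM in the Ctgf line. All 4 Yap-line libraries lay above the Ctgf line, with a log2 difference of 0.84 (SE 0.17, adjusted p = 0.0167), while the knockouts differed from their controls by -0.44 (SE 0.24, adjusted p = 0.435). Lamb3, an epithelial chain that joins Lama3, was at 2.79 and 7.53 CPM in the Yap controls and 4.64 and 12.5 CPM in the Yap1 knockouts. Its libraries overlapped in the Yap1, Ctgf and control comparisons, and the replicates differed by more than any pair of group means in every group but the Ctgf controls. Lamc3 stayed within 2.31 to 3.92 CPM.

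**Figure D3:**
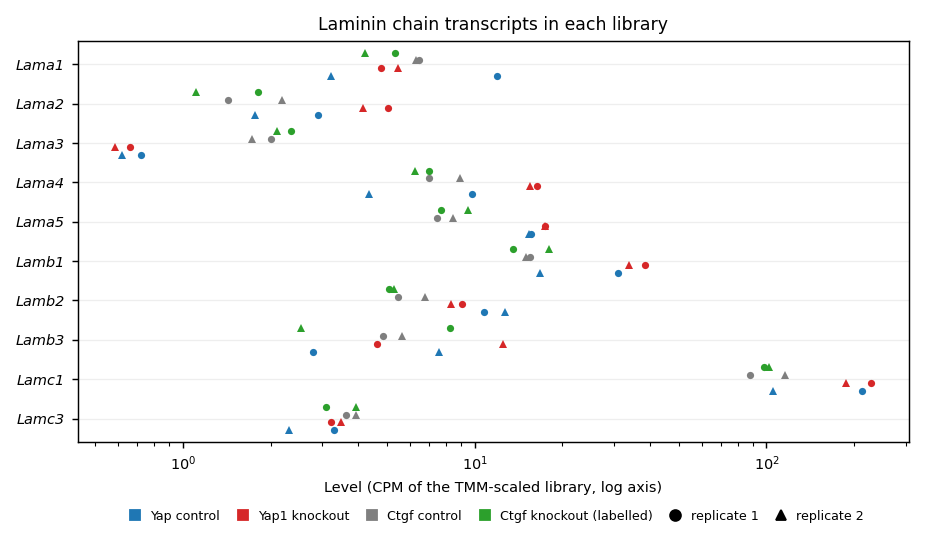
Level of each of the 10 laminin chains in the 8 libraries, in CPM of the TMM-scaled library on a log axis, coloured by group with circles for replicate 1 and triangles for replicate 2. Lamc1 is the highest chain in every library, Lama5 and Lamb2 lie higher in all Yap-line libraries, and Lama3 lies lower.

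Summed stellate and endothelial markers were also higher in the Yap line, the direction of Lama5, Lamb1, Lamb2 and Lamc1. The 7 stellate markers summed to 694 to 799 CPM in the Yap line and to 334 to 376 CPM in the Ctgf line. In 5 of 7 all Yap-line libraries lay above all Ctgf-line libraries, beside 11.5% of all genes. Between the controls 3 of 7 were called higher, beside 1.27% of all genes. Acta2, a marker of activated stellate cells, was at 74.97 and 72.03 CPM in the Yap controls and 122 and 125 CPM in the Yap1 knockouts, beside 1.81 to 3.53 CPM in the Ctgf line. The 6 sinusoidal endothelial markers summed to 347 to 477 CPM in the Yap line and to 228 to 282 CPM in the Ctgf line, but for Lyve1 alone of the 6 did the lines not overlap, and 0 of 6 passed between the controls. None of the 13 markers was at 0 in any library. The stellate sums were 694 to 758 CPM in the Yap controls and 777 to 799 CPM in the Yap1 knockouts. Without Acta2 they were 683 and 622 CPM in the controls and 655 and 674 CPM in the knockouts. In 2 of 7 markers both knockouts lay above both controls, beside 23.6% of all genes, with 0 past the threshold. The part of these cells in the members' levels was not tested.

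**Figure D4:**
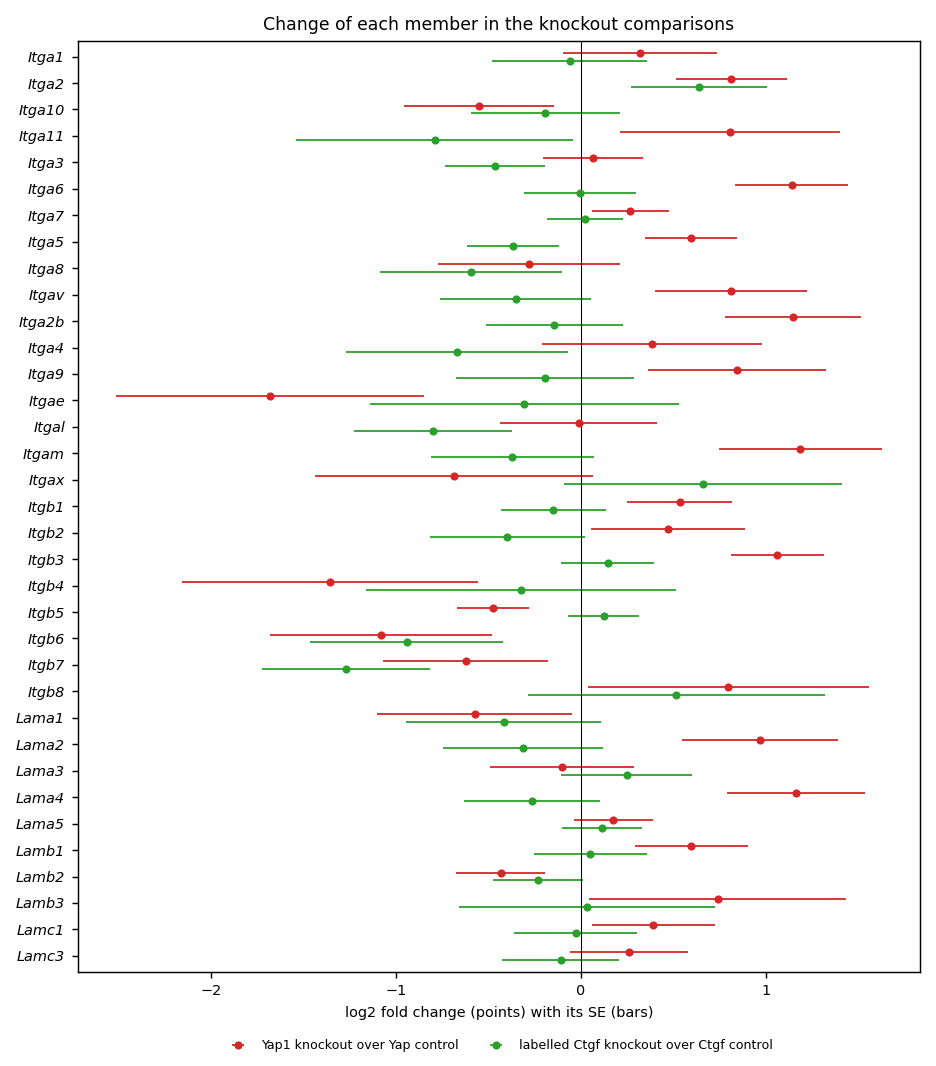
Log2 fold change of each member with its standard error, for Yap1 knockout over Yap control and for the libraries labelled Ctgf knockout over Ctgf control, with 2 libraries per group. No point passes the adjusted threshold in either comparison, and the largest positive Yap1 values belong to Itgam, Lama4, Itga2b, Itga6 and Itgb3.

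**Figure D5:**
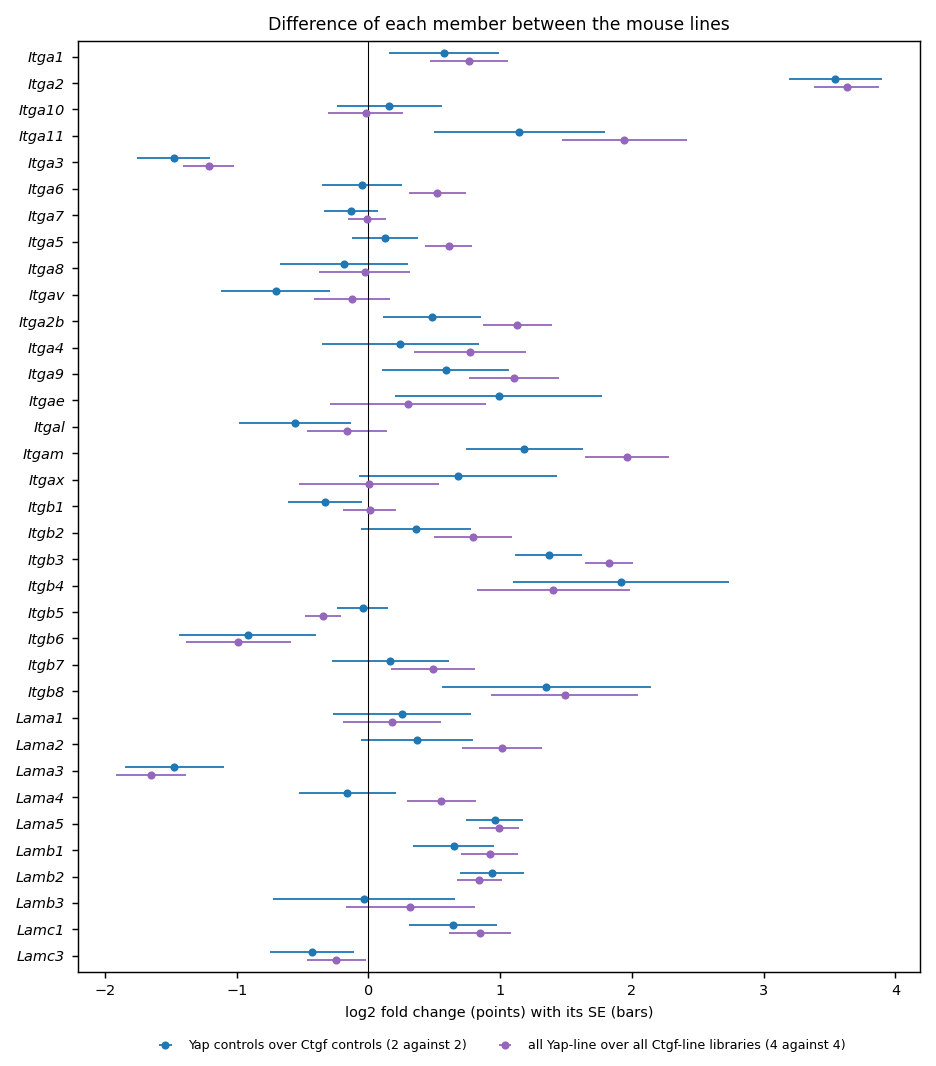
Log2 fold change of each member between the lines with its standard error, for the controls alone (2 against 2 libraries) and for both groups of each line (4 against 4 libraries). Itga2 stands at 3.54 and 3.63, Itgb3 at 1.37 and 1.83, and Itga3 at -1.48 and -1.21.

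The calls between the controls rested on the shared estimate of spread. With the libraries of that comparison alone, the adjusted p was 0.0852 for Itga2, 0.103 for Itga3 and 0.131 for Itgb3, with log2 differences of 3.55, -1.47 and 1.38. These calls did not hold when either Ctgf control or either Yap1 knockout was left out, and calls over all genes fell likewise. The log2 difference of Itga2 was then 3.36 to 3.78. Without Yap control 1, 11 members passed, 5 higher and 6 lower, beside 13.4% and 12.2% of all genes. With Yap control 1 alone kept, 7 passed, all higher, beside 3.89% of all genes higher and 3.18% lower: Itga1, Itga2, Itgb3, Itgb8, Lama5, Lamb1 and Lamc1. Itga3 also missed the threshold without Yap control 2 (adjusted p = 0.0585), and Itgb3 without either library labelled Ctgf knockout (0.0538 and 0.0568). Upper-quartile scaling, which moved the median of all genes from 0.0411 to 0.181, called 4 members, 3 higher and 1 lower, beside 1.74% and 0.814% of all genes, and turned the split of all calls from 178 higher and 155 lower to 244 higher and 114 lower. Without Yap control 2 and the library labelled Ctgf knockout 2, 14 members passed, 12 higher and 2 lower, beside 13.8% and 14.6% of all genes.

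Partners of the members in adhesion and basement membrane were counted from lists of other genes. Of 30 adaptors that link integrins to the cytoskeleton, 0 passed in any of the Yap1, Ctgf and control comparisons. In the Yap1 comparison both knockouts lay above both controls in 10 adaptors and below in 1, beside 23.6% and 20.8% of all genes. The smallest p there belonged to Zyx, which encodes the focal adhesion protein zyxin, at 94.3 and 116 CPM in the Yap controls and 169.9 and 159.6 CPM in the Yap1 knockouts (log2 difference 0.65, SE 0.20, adjusted p = 0.244). The focal adhesion kinase gene Ptk2 differed by 0.62 (SE 0.27) and the kindlin gene Fermt2 by 0.70 (SE 0.33). Between the controls, Src, the kinase of focal adhesions, was at 33.4 and 60.3 CPM in the Yap and 115 and 113 CPM in the Ctgf controls (log2 difference -1.28, SE 0.28, adjusted p = 0.0591), Fermt3, the kindlin of blood cells, differed by 1.06 (SE 0.32) and Bcar1 by -0.58 (SE 0.19). Without Yap control 2, Src differed by -1.78 and Tns1 by 1.08 between the controls. In the Ctgf comparison the smallest p belonged to Src (log2 difference -0.48, SE 0.28), Tns1 (log2 difference 0.37, SE 0.27) and Fermt3 (log2 difference -0.38, SE 0.32).

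Of 14 basement membrane partners, 0 passed in these comparisons. Col4a1 and Col4a2, the chains of the main type IV collagen, had the smallest p for Yap1. Col4a1 was at 487 and 167 CPM in the Yap controls and 812 and 770.3 CPM in the Yap1 knockouts (log2 difference 1.27, SE 0.48, adjusted p = 0.318), beside 58.8 to 103 CPM in the Ctgf line. Col4a2 differed by 1.09 (SE 0.45) and Nid2, which links laminin to type IV collagen, by 0.76 (SE 0.32). These were 0.70 for Col4a1, 0.59 for Col4a2 and 0.34 for Nid2 without Yap control 2. The list had both knockouts above both controls in 7 genes and below in 1, beside the same shares of all genes, with a median log2 difference of 0.48. Between the controls, Col4a1 differed by 2.19 (SE 0.49, adjusted p = 0.0616), Col4a2 by 1.99 (SE 0.46) and Hspg2, which encodes perlecan, by 1.58 (SE 0.41). Without Yap control 2 these 3 differed by 2.76, 2.49 and 2.09, and Nid2 by 1.06. In the Ctgf comparison, Col4a6 (log2 difference -2.90, SE 0.82), Col4a5 (log2 difference -0.58, SE 0.42) and Nid2 (log2 difference -0.43, SE 0.32) had the smallest p, and the levels of Col4a6 in the libraries labelled knockout, 0.0709 and 0.0636 CPM, were below the floor of 3 counts.

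Of 20 integrin ligands, 18 were tested and 0 passed. Fn1, which encodes fibronectin, the ligand of alpha 5 beta 1, was at 3918 and 2966 CPM in the Yap controls and 8108 and 7688 CPM in the Yap1 knockouts, a log2 difference of 1.20 (SE 0.27, adjusted p = 0.156). Ctgf and Cyr61, integrin ligands known as YAP targets, were also higher in both Yap1 knockouts than in both controls. Ctgf was at 96.8 and 50.1 CPM in the Yap controls and 406 and 324 CPM in the Yap1 knockouts (log2 difference 2.31, SE 0.72, adjusted p = 0.250), and Cyr61 was at 39.2 and 20.95 CPM in the controls and 71.1 and 45.8 CPM in the knockouts (log2 difference 0.96, SE 0.33, and 0.58 without Yap control 2). In the Ctgf comparison, Cyr61 was at 80.7 and 91.1 CPM in the controls and 39.9 and 42.4 CPM in the libraries labelled knockout (log2 difference -1.06, SE 0.33, adjusted p = 1), and the fibrinogen genes Fgg and Fgb differed by 0.82 (SE 0.35) and 0.80 (SE 0.35). Between the controls, Cyr61 differed by -1.51 (SE 0.33, adjusted p = 0.0591), Postn, which encodes periostin, by 1.82 (SE 0.44) and Spp1, which encodes osteopontin, by 2.11 (SE 0.57). Without Yap control 2, Postn differed by 2.29 and Tnc, which encodes tenascin C, by 4.13, and Cyr61 and Spp1 differed by -1.14 and 0.73.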

How the data were processed

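Whole-liver RNA was sequenced in 8 libraries, 2 in each of 4 groups. The values used are the raw counts that the authors deposited, 1 line per gene symbol. The submitters' processing notes name HTSeq 0.6.1, STAR 2.6.0a and bcl2fastq 2.20.0.422, and the builds mm10 and GRCm38. Annotation and strand setting are unknown here. The table's unused columns numbered 0.

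All 8 libraries entered 1 fit of the 4 groups with edgeR 4.0.16 in R 4.3.3 (TMM scaling, filterByExpr, quasi-likelihood F test), which left 13999 genes, 4 residual degrees of freedom and a biological coefficient of variation of 27.2%. The threshold was a Benjamini-Hochberg adjusted p under 0.05 over these genes. The script was tested on simulated data. Each standard error (SE) is the size of the log2 fold change over the square root of F. Levels are CPM of the TMM-scaled library, and levels per kilobase divide by union exon length in the GENCODE annotation of GRCm38, matched by symbol. The total counts of 26904021 to 33488609 put 3 counts at 0.083 to 0.123 CPM, and without molecular identifiers such floors cover counting error only. The labels number the libraries without saying that a number is an animal, and each p-value rests on how much libraries of a group vary, which may be partly technical. Replicates differed beyond sampling noise in every group (chi-square per degree of freedom 15.5 to 346). The labels' protocols name both an Illumina TruSeq and a KAPA kit without saying which library had which. The alternatives were RLE and upper-quartile scaling, DESeq2 1.42.0, limma-voom (limma 3.58.1), no filter, at least 1 CPM in 2 libraries as the filter, fits of the compared groups alone, the replicate number as a block, each library left out, and 2 libraries left out together. Averages over both groups of each line, with and without those 2 libraries, were added after the data were seen. The members, gene lists, marker lists and tests were chosen with earlier results of these data known. The text names all members, the targeted genes Yap1 and Ctgf, and the 3 genes with the smallest p per partner list and comparison, besides cell type markers. Figures were drawn with matplotlib 3.10.9.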

Additional observations from a re-analysis of the deposited data

How the results depend on the processing

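Over all settings run, the call held in 18 of 35 members and the sign in 24 for Yap1, and in 35 and 18 for Ctgf. For the difference between the effects they held in 24 and 22, and between the controls in 8 and 14. The settings between the controls included the averages over both groups of each line, which also hold the knockouts. For Yap1, all genes called were 4, with 514 by DESeq2, 37 with no filter, 0 with only the libraries of the comparison, 938 without Yap control 2 and the library labelled Ctgf knockout 2 together, and 0 to 3728 with 1 library left out. Members called were 0, with 2 by DESeq2, 3 without those 2 libraries and 0 to 15 with 1 left out, and their median ran from 0.16 to 0.76. For Ctgf, all genes called were 0, with 4 by DESeq2 and 1 by limma-voom, and the members' median ran from -0.24 to -0.067 with 1 library left out. For the difference between the effects, all genes called were 0, with 142 by DESeq2, 2 with no filter, 143 without the 2 libraries and 0 to 2092 with 1 left out; members called ran from 0 to 11 and their median from 0.34 to 0.98. Between the controls, 333 genes and 3 members were called, with 1527 and 6 by DESeq2, 0 and 0 with only the libraries of the comparison, 4056 and 14 without the 2 libraries, 2468 and 11 with both groups of each line, and 6768 and 23 with both groups but without the 2 libraries, where the members' median was 0.78 and Itga6 (0.76) and Lama4 (0.74) took the opposite sign. With 1 library left out, these ran from 0 to 3699 genes and 0 to 11 members, and the members' median from -0.22 to 0.52. Lama1 took the opposite sign between the controls without Yap control 1 (-0.97), within a range of -0.97 to 0.90 with 1 library left out. The cause of these shifts was not tested. Where a group is left with 1 library, it is assumed to vary like the other groups.

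The titles name each Yap control as the control of a numbered knockout, and that number matches a knockout's column for replicate 2 and not for replicate 1. No label says what such a pair shares, and the replicate numbers were not shown to pair libraries: same-numbered deviations correlated at 0.0716 in the Yap line, 0.0678 in the Ctgf line and -0.117 between the controls. With the replicate number as a block, calls between the controls were 219 genes and 2 members (Itga3 missed the threshold, adjusted p = 0.0511), Yap1 calls were 3 genes, and members called stayed at 0 for Yap1, Ctgf and the difference between the effects. With 3 counts at 0.083 to 0.123 CPM, Itgb6, Itgae and Itga11 were too scarce for small differences to be seen.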
